A study of Homo sapiens with 15 samples.

Results

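The genes described here are 40 protein-coding genes of G2 phase and mitosis, taken as a fixed list of symbols of G2/M cyclins, mitotic kinases, spindle checkpoint genes, centromere and kinetochore genes, mitotic kinesins and spindle proteins. All 40 were found among the 57500 genes of the count tables. Their levels were followed in 15 RNA-seq libraries of K562 cells, a human erythroleukaemia line, in 5 groups of 3. Cells of 4 groups had been transfected with Cas9FCPF, a Cas9 carrying the FCPF tag, and received 1 µM of a compound for 1 h. These groups were JQ1-FCPF with sgRNA, JQ1-FCPF without sgRNA, JQ1 with sgRNA and JQ1 without sgRNA. The fifth group was the control, labelled as wild type and untreated, while the series text names DMSO as the control. JQ1 is an inhibitor of the BET family of bromodomain proteins. The name JQ1-FCPF marks a compound derived from JQ1, and the labels give no structure for it. The labels do not say that the control was transfected, so a difference from the control holds compound, transfection and Cas9FCPF together. Which sequence the sgRNA targets is not in the labels, and nothing states that the 3 libraries of a group came from separate cultures. The p-values therefore measure the spread between these libraries, which may be technical.

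Entry into mitosis is driven by CDK1 bound to cyclin A or cyclin B and released from inhibition by CDC25 phosphatases. The spindle checkpoint then holds the anaphase-promoting complex (APC/C) until kinetochores are attached, after which CDC20 directs the destruction of securin and cyclin B. Many genes of this programme are transcribed late in the cycle through a CHR element, often beside CCAAT boxes. The CHR binds the DREAM repressor complex early in the cycle and complexes with the B-MYB and FOXM1 activators later. RNA of a whole culture was measured, so fewer cells in G2 or mitosis and less RNA per cell cannot be told apart.

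RefSeq promoters (GRCh38.p14, 250 bases before to 50 after the start) were found for 33 of the 40 genes. For each gene 1 start was used, the outermost RefSeq start on its strand, and other starts were not searched. The letters TTTGAA or TTTAAA of the CHR, searched on both strands, stood in 27 of the 33 promoters (81.8%), against 24.4% of 27305 RefSeq promoters of the same length. The CCAAT box, searched as CCAAT on both strands, stood in 24 of the 33 (72.7%), against 35.7% of all promoters. Both motifs stood in 21 of the 33 (63.6%), against 9.55% of all promoters. The E-box CACGTG, searched for comparison, stood in 5 of the 33 (15.2%), against 7.4% of all promoters. Matches shared bases with a neighbouring match in 4 promoters, of the same motif in HMMR and PTTG1 and of a CHR with a CCAAT box in CDCA8 and MKI67. A match is a description of sequence, not of binding. The 200 bases before the RefSeq start are printed for 6 genes, in the direction of transcription, with CHR and CCAAT letters in capitals (ATTGG and TTCAAA are the same motifs on the other strand). CDK1 (chr10:60778131-60778330, plus strand), CENPA (chr2:26785856-26786055, plus strand), NUSAP1 (chr15:41332681-41332880, plus strand) and CDC25C (chr5:138338356-138338555, minus strand) are shown because their RNA changed in the tests below. PLK1 (chr16:23678689-23678888, plus strand) and CCNB2 (chr15:59104946-59105145, plus strand) are shown because they hold several of the motifs and were called by edgeR in no comparison over all 15 libraries.
CDK1: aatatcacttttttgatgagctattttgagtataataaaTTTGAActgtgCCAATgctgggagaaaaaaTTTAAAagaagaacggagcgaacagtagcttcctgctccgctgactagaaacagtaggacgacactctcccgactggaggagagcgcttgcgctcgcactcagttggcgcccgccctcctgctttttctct
CENPA: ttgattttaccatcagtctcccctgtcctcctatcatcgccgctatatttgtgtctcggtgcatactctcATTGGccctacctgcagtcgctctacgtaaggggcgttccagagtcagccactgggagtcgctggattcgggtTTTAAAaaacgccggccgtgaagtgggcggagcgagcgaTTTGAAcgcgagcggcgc
NUSAP1: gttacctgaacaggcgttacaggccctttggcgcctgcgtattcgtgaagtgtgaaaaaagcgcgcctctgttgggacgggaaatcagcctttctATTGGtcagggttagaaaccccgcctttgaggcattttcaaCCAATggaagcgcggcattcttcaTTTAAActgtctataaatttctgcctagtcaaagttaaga
CDC25C: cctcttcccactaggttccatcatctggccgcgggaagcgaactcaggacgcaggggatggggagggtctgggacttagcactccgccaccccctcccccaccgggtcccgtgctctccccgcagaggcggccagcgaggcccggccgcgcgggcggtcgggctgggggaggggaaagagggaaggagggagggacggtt
PLK1: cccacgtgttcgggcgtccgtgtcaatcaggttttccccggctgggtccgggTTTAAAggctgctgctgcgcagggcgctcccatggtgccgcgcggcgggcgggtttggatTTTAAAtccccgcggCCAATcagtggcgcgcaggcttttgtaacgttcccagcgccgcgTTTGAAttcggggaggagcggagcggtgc
CCNB2: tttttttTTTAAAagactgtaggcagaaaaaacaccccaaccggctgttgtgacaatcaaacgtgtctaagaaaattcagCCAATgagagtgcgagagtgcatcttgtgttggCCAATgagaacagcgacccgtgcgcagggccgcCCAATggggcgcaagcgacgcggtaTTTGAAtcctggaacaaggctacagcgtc

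The CDK1 promoter held CHR letters at -161 and -131 with a CCAAT box between them at -150, counted from the RefSeq start to the first base of the motif. CENPA had CHR letters at -57 and -18, NUSAP1 at -40 and, after the start, at 14, and PLK1 at -148, -88 and -29. CCNB2 had CCAAT boxes at -244, -120, -87 and -54 and CHR letters at -193 and -29. CDC25C held none of the 3 motifs in the 300 bases at its outermost RefSeq start. Motifs at any other start of CDC25C would have been missed. Of the 6 genes that rose with JQ1 without sgRNA (below), 5 had a promoter in the table; 4 of these held a CHR and 3 a CCAAT box. For CENPA, NUSAP1, PLK1, CCNB2 and NUF2 the RefSeq start lies downstream of the outermost start of the gene in the count tables.

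**Figure D1:**
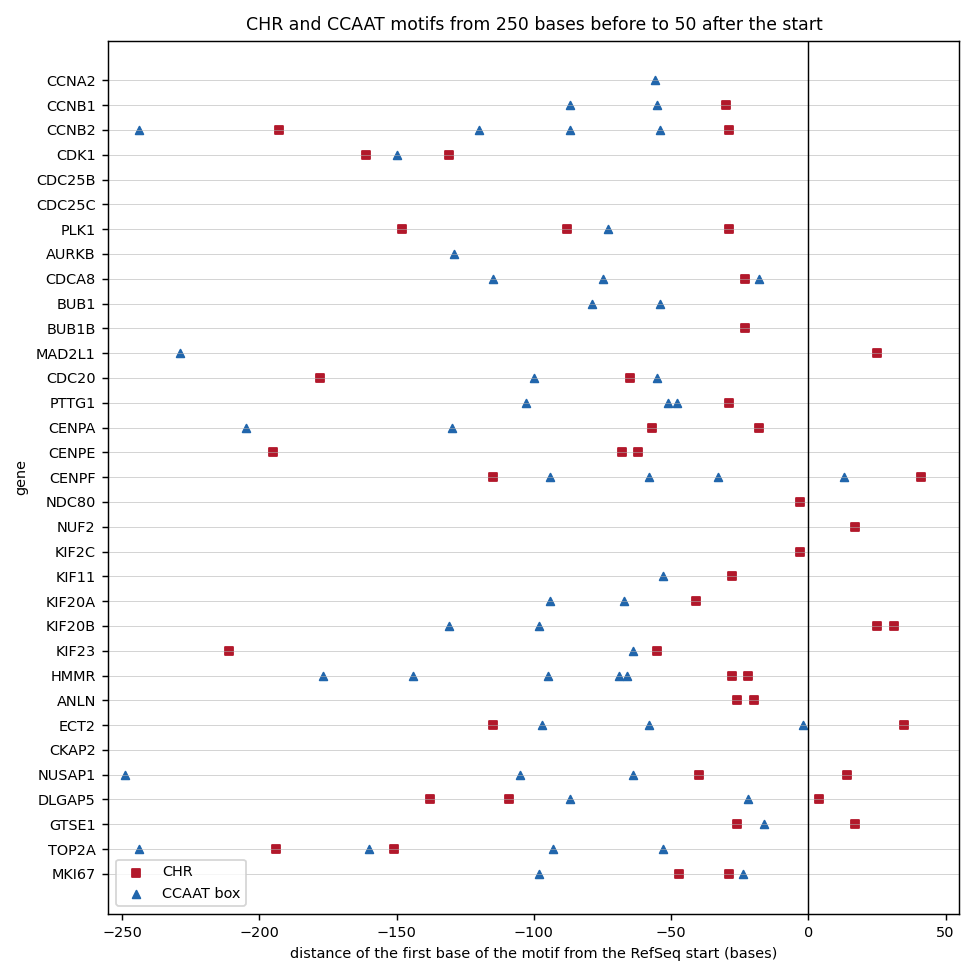
Distance in bases of each CHR (squares) and CCAAT box (triangles) from the RefSeq start for the 33 genes with a promoter, searched from 250 bases before to 50 after the start. CHR letters stood in 27 of 33 promoters and CCAAT letters in 24, while CDC25B, CDC25C and CKAP2 had neither.

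Library totals ran from 12625669 to 17544518 counts, and the 40 genes took 0.426% to 0.543% of them. All 40 passed the filter on low counts and were tested among 15517 genes. In length-scaled levels (TPM, mean of 15 libraries) the highest were CDC20 at 271, TPX2 at 264, CCNB1 at 263, PTTG1 at 214 and TOP2A at 211 TPM. CDC20, TPX2 and CCNB1 had library ranges of 201.5 to 313, 210.1 to 321 and 192.5 to 301 TPM, so their order was within the spread. The lowest were KIF23 at 20.8, ECT2 at 17.3 and UBE2C at 2.17 TPM. UBE2C, an E2 enzyme of the APC/C, had only 207 counts over the 15 libraries, while its pseudogene UBE2CP5 had 894, so reads may have been split between them and its value is uncertain. Scaled to library size (CPM, counts scaled to a common library total), the ratio of the highest to the lowest library had a median of 1.52 over the 40 genes and was under 1.5 for 18 of them. It was lowest for MKI67 and CDC25B, both at 1.22, and, UBE2C aside at 4.45, highest for CDC25C at 2.05. Of the K562 markers, the erythroid factor GATA1 stood at 365 to 626 TPM and fetal globin HBG1 at 440.3 to 807 TPM. The 9 K562 markers summed to 1892 to 3179 TPM, against 3.66 to 7.30 TPM for 4 B cell and 0.602 to 1.88 TPM for 4 fibroblast markers. Among T and NK cell markers CD3D stood at 57.0 to 107.9 TPM with CD3E at no more than 0.705 TPM, and among epithelial markers EPCAM stood at 73.2 to 98.1 TPM with KRT5 and CDH1 at no more than 0.153 TPM. The labels call the cells lymphoblasts.

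The members outside those given in full below had the following lowest and highest values over the 15 libraries. Among regulators of CDK1, cyclin A2 (CCNA2) ran from 139 to 193 CPM, cyclin B2 (CCNB2) from 91.5 to 136 CPM and the phosphatase CDC25B from 57.7 to 70.6 CPM. The mitotic kinase PLK1 ran from 132 to 212 CPM, and the passenger complex subunits BIRC5 and CDCA8 from 122 to 192 and from 93.7 to 122 CPM. The checkpoint proteins BUB1B and MAD2L1 ran from 65.4 to 100.8 and from 62.5 to 95 CPM, and securin (PTTG1) from 113 to 176 CPM. At the kinetochore, CENPE ran from 66.1 to 92.4 CPM and CENPF from 166 to 211 CPM. The kinesin KIF11, which pushes spindle poles apart, ran from 58.7 to 86.2 CPM, and KIF20B and KIF23 of cytokinesis from 52.9 to 79.1 and from 36.2 to 52.7 CPM. HMMR, which also returns in the comparison of compounds, ran from 61.6 to 88.1 CPM, ANLN from 38.0 to 56.3 CPM and ECT2, which activates RHOA for cytokinesis, from 24.5 to 39.5 CPM. The spindle proteins CKAP2 and GTSE1 ran from 37.2 to 53.6 and from 33.6 to 49.7 CPM, and the proliferation antigen MKI67, which coats mitotic chromosomes, from 299.8 to 365.5 CPM.

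A pair of libraries stood apart from their groups, replicate 2 of JQ1-FCPF with sgRNA and replicate 1 of the JQ1 group with sgRNA, and counts are also given without both. A chi-square per degree of freedom compared counts of 2 libraries, larger meaning less alike. The former had 21.2 and 21.6 with its replicates (7.92 between those), the latter 40.4 and 43.2 (3.75). JQ1-FCPF without sgRNA replicate 1 also differed from its replicates, at 17.7 and 17.4 (2.76), but was kept when both were left out. On the first principal component of all tested genes the library of JQ1-FCPF with sgRNA replicate 2 lay at 32.2, its replicates 1 and 3 lay at -16.7 and -14.8, while JQ1 libraries lay between 16.8 and 24.6. The G2/M genes moved with that library. Their median deviation from the mean of the 15 libraries, in log2 CPM, was 0.26 in that library, while replicates 1 and 3 of the group had -0.07 and -0.01, and 37 of the 40 were above their mean there. It was the highest library of its group for 34 of the 40 genes. Control replicate 1 stood lowest of the controls, at -0.17 against 0.01 and -0.01 in replicates 2 and 3, and was lowest of its group for 32 genes. JQ1-FCPF without sgRNA replicate 1 was the highest of its group for 33 genes, at 0.06 against -0.115 and -0.11. The 3 JQ1 without sgRNA libraries were all above 0, at 0.09, 0.12 and 0.065, and the JQ1 with sgRNA libraries were at -0.06, -0.03 and 0.07. Over all tested genes the same median stayed between 0.002 and 0.015 in every library.

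**Figure D2:**
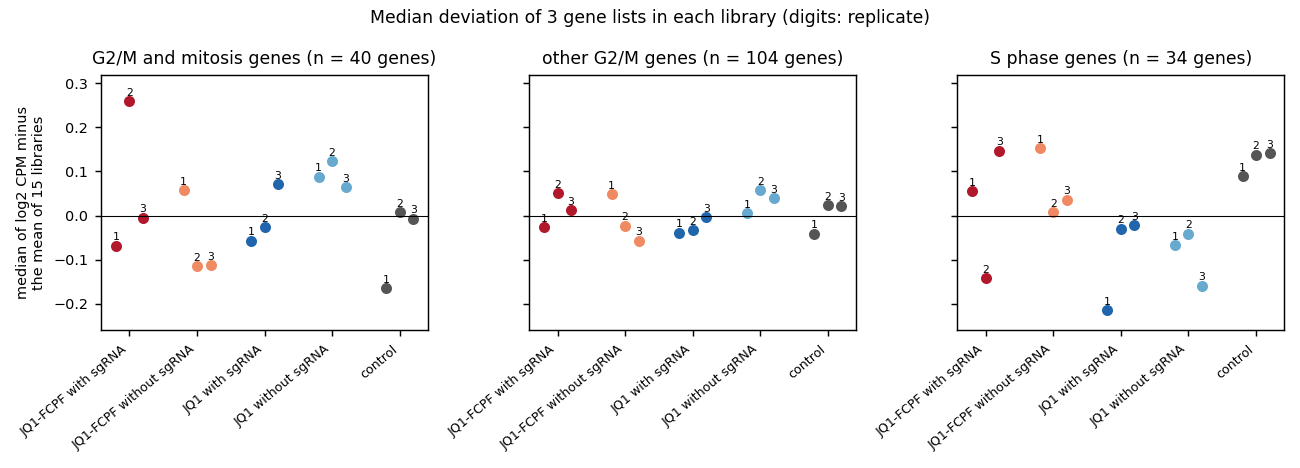
Median over each gene list of log2 CPM minus the mean of the 15 libraries, 1 point per library with its replicate number, for 40 G2/M and mitosis genes, 104 other G2/M genes and 34 S phase genes. JQ1-FCPF with sgRNA replicate 2 is the highest library for the G2/M and mitosis genes at 0.26 and is at -0.14 for the S phase genes.

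JQ1 with sgRNA replicate 1, with 7.46% of its counts from mitochondrial genes against 2.31% to 5.98% in the other 14 libraries, differed from its replicates by gene length. Across the 40 genes, Spearman's rho between exon length and deviation was 0.41 in this library, against -0.37 and -0.39 in replicates 2 and 3 (n = 40 genes, which are not independent). Other libraries ran from -0.49 in JQ1 without sgRNA replicate 1 to 0.32 in JQ1-FCPF without sgRNA replicate 1. Over all tested genes rho was 0.15 in JQ1 with sgRNA replicate 1 and 0.22 in JQ1-FCPF with sgRNA replicate 2. Several of the shorter genes were low in JQ1 with sgRNA replicate 1. CDC20 had 135 CPM, against 205 and 202 CPM in replicates 2 and 3, CCNB1 had 162 CPM, against 214 and 223 CPM, and BIRC5 (survivin, a subunit of the chromosomal passenger complex) had 122 CPM, against 188 and 192 CPM. Several of the longer genes were high. CENPE, a kinetochore kinesin, had 91.3 CPM, against 69.7 and 67.9 CPM, and KIF20B had 78.9 CPM, against 59.6 and 52.9 CPM. Length also went with the size of some differences below. Split at the median exon length of 3947 bases, the 20 longer genes had a median log2 fold change of 0.10 and the 20 shorter ones 0.24 for JQ1 without sgRNA against control. For JQ1-FCPF against JQ1 without sgRNA the medians were -0.085 for the longer and -0.225 for the shorter genes. Over all tested genes, the longer and shorter ones had -0.02 and 0.025 in the first comparison and 0.01 and -0.01 in the second. The part of length in these results was not tested.

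**Figure D3:**
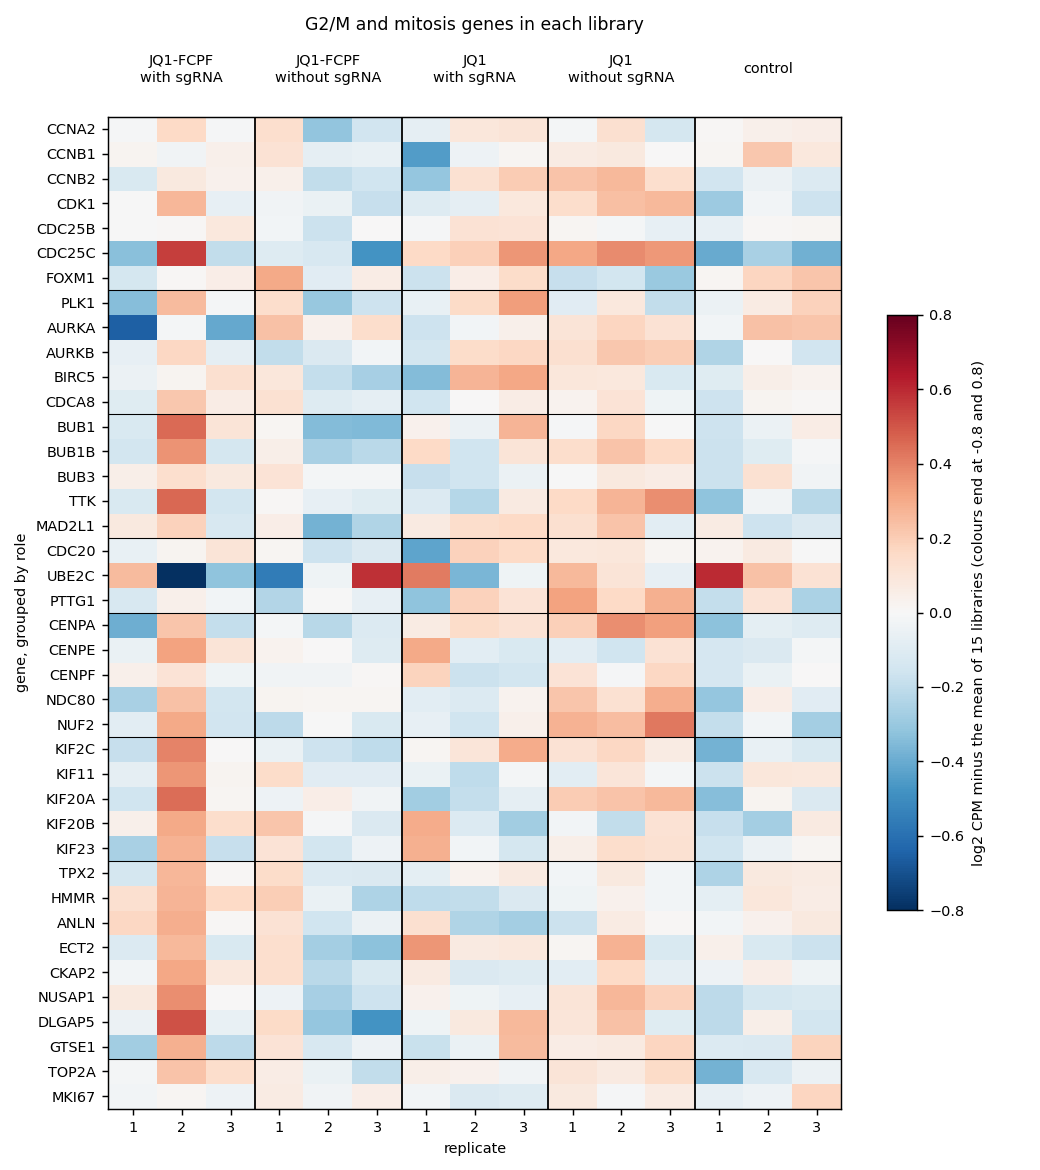
Log2 CPM minus the mean of the 15 libraries for each of the 40 genes (down the page, grouped by role) in each library (across, 3 replicates per group), with red above and blue below the mean. JQ1-FCPF with sgRNA replicate 2 is above the mean for 37 of 40 genes, and UBE2C, at 0.315 to 1.40 CPM, varies most between libraries.

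With JQ1 in the absence of sgRNA, 6 of the 40 genes rose relative to control and 1 fell. The genes that rose were CDC25C and CDK1 of the mitotic switch, NUF2 and CENPA of the kinetochore and centromere, the checkpoint kinase TTK and the spindle protein NUSAP1, by 1.27-fold to 1.62-fold, while the transcription factor FOXM1 fell by 1.27-fold. Genes were called with edgeR's quasi-likelihood test on counts at a Benjamini-Hochberg adjusted p under 0.05 over all 15517 genes. Of all tested genes, 6.07% were called higher and 6.23% lower, so 6 of 40 higher and 1 of 40 lower stand beside those shares. The median log2 fold change of the 40 genes was 0.11, against -0.003 over all tested genes, and 30 of the 40 were positive. Without control replicate 1, the lowest control library, it was 0.06 with 25 positive.

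CDC25C (ENSG00000158402, chr5:138285265-138338355, minus strand, GRCh38), a phosphatase that activates CDK1, had 29.95, 31.5 and 30.8 CPM with JQ1 without sgRNA, against 18.3, 20.2 and 18.5 CPM in control libraries. The groups did not overlap. The log2 fold change, given with its standard error (n = 3 libraries each) here and below, was 0.70 ± 0.17, 1.62-fold, with an edgeR adjusted p of 0.0106. CDC25C shares 9.62% of its exon bases with FAM53C on the opposite strand, and the use of strand in counting is not given in the sources used here, so some of its reads may belong to FAM53C. CDK1 (ENSG00000170312, chr10:60778331-60794852, plus strand), the mitotic kinase itself, had 186, 199.5 and 202 CPM with JQ1 without sgRNA, against 138, 166 and 151 CPM in control libraries. These groups did not overlap either, and the log2 fold change was 0.37 ± 0.10 (edgeR adjusted p = 0.025).

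FOXM1 (ENSG00000111206, chr12:2857681-2877155, minus strand), a transcriptional activator of the mitotic genes, was the 1 gene that fell. It had 38.5, 39.6 and 35.6 CPM with JQ1 without sgRNA, against 44.3, 49.45 and 51.1 CPM in control libraries, with no overlap. The log2 fold change was -0.35 ± 0.11 (edgeR adjusted p = 0.0469). It shares 15.9% of its exon bases with ITFG2 on the opposite strand. CCNB1, which encodes cyclin B1 and had the highest TPM of the CDK1 group, had 231, 233 and 221 CPM with JQ1 without sgRNA, against 223, 256 and 234 CPM in control libraries. The log2 fold change was -0.06, with a 95% interval of -0.28 to 0.165.

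Of the centromere and kinetochore genes, NUF2 and CENPA rose and the median log2 fold change of the 5 genes was 0.32. NUF2 (ENSG00000143228, chr1:163266576-163355764, plus strand), a subunit of the NDC80 complex that binds microtubules, had 67.5, 65.8 and 74.6 CPM with JQ1 without sgRNA, against 48.6, 54.6 and 45.9 CPM in control libraries. The log2 fold change was 0.48 ± 0.12 (edgeR adjusted p = 0.0112). Its partner NDC80 had 83.5, 77.8 and 87.6 CPM with JQ1 without sgRNA, against 57.7, 74.2 and 67.4 CPM in control libraries. NDC80 did not overlap between the groups but did not pass the threshold (0.32 ± 0.12, edgeR adjusted p = 0.0702). CENPA (ENSG00000115163, chr2:26764289-26801067, plus strand), the histone H3 variant that marks centromeres, had 41.5, 47.1 and 45.6 CPM with JQ1 without sgRNA, against 28.9, 34.4 and 33.8 CPM in control libraries. Its groups did not overlap, the log2 fold change was 0.47 ± 0.125 (edgeR adjusted p = 0.0205), and 6.96% of its exon bases are shared with SLC35F6 on the same strand.

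TTK (ENSG00000112742, chr6:80003887-80042527, plus strand), also called MPS1, starts the checkpoint signal at kinetochores. It had 52.4, 56.6 and 60.8 CPM with JQ1 without sgRNA, against 37.5, 46.1 and 40.2 CPM in control libraries, with no overlap (log2 fold change 0.46 ± 0.14, edgeR adjusted p = 0.0317). BUB3, the checkpoint gene with the highest TPM, had 272, 288 and 284 CPM with JQ1 without sgRNA, against 242, 298 and 268 CPM in control libraries, and its interval was -0.13 to 0.26. NUSAP1 (ENSG00000137804, chr15:41332694-41381050, plus strand), which bundles spindle microtubules, had 138, 154 and 145.5 CPM with JQ1 without sgRNA, against 111, 116 and 117.5 CPM in control libraries. Every JQ1 library lay above every control (log2 fold change 0.35 ± 0.10, edgeR adjusted p = 0.0293).

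**Figure D4:**
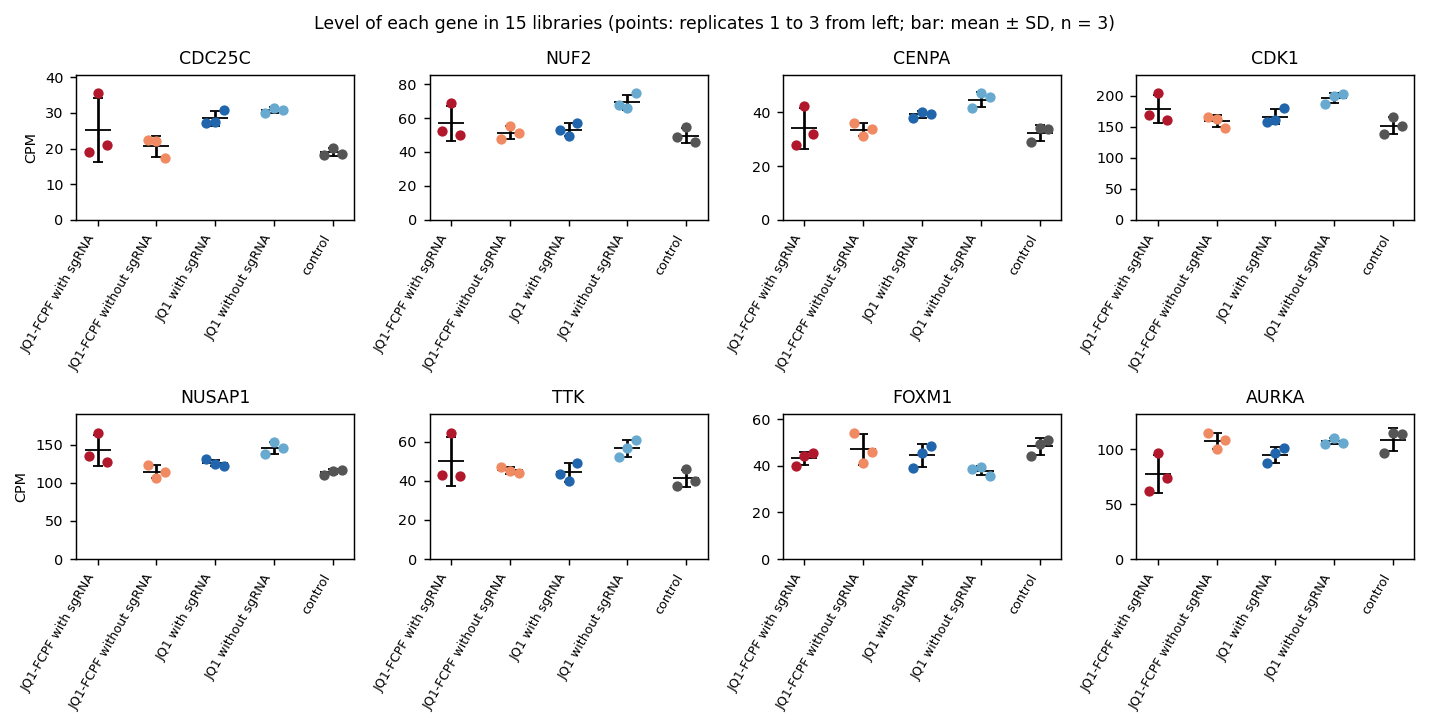
CPM of the 8 genes called in at least 1 comparison, in the 3 libraries of each group (points, replicates 1 to 3 from left) with mean ± SD (bars, n = 3). CDC25C lies between 29.95 and 31.5 CPM with JQ1 without sgRNA, against 18.3 to 20.2 CPM in control, and AURKA is lowest with JQ1-FCPF with sgRNA.

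edgeR called no gene of the other roles over all 15 libraries, but further genes passed under other fits of the same libraries. DESeq2 called 10 genes, 9 higher and 1 lower, adding PTTG1, AURKB and TOP2A (13.4% of all genes). The edgeR fit with the replicate block called 9, all higher, adding KIF20A, PTTG1 and AURKB and losing FOXM1 (11.2% of all genes). AURKB, the kinase of the chromosomal passenger complex, had 106, 113 and 112 CPM with JQ1 without sgRNA, against 82.4, 97.6 and 87.5 CPM in control libraries (log2 fold change 0.31 ± 0.10, edgeR adjusted p = 0.0538). TOP2A, the topoisomerase that untangles sister chromatids, had 478, 466 and 493 CPM, against 341, 406 and 430.2 CPM in control libraries (0.29 ± 0.11, edgeR adjusted p = 0.0782). KIF20A, a kinesin of cytokinesis, had 67.9, 69.3 and 70.6 CPM, against 46.7, 60.01 and 54.4 CPM in control libraries (0.37 ± 0.12, edgeR adjusted p = 0.0557). In all 3 genes the groups did not overlap while edgeR's adjusted p without the block missed the threshold. How many of all tested genes did not overlap was not counted. KIF2C, a kinesin that takes microtubules apart at centromeres, had 218, 227 and 211 CPM, against 155, 194 and 185 CPM in control libraries, with an interval of 0.04 to 0.56. TPX2, which activates AURKA on the spindle, had 307, 329 and 307 CPM, against 262, 328 and 325 CPM in control libraries (0.04 ± 0.12, edgeR adjusted p = 0.849, interval -0.20 to 0.28). CDC20, the APC/C activator, had 192, 192 and 183 CPM, against 184, 189.8 and 179.8 CPM in control libraries (0.03 ± 0.12, edgeR adjusted p = 0.883, interval -0.215 to 0.28). Both genes overlapped between the groups.

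How many of these genes passed depended on which libraries entered. Without both libraries that stand apart, neither of which belongs to the groups compared, 14 genes were higher and 1 lower, with 26.9% of all tested genes called in either direction. The 8 added genes were KIF2C, KIF20A, PTTG1, BUB1B, CCNB2, AURKB, TOP2A and NDC80. Leaving out 1 of them was enough to raise the count, to 15 genes without JQ1-FCPF with sgRNA replicate 2 (18.5% of all genes) and to 13 without JQ1 with sgRNA replicate 1 (16.7%). Without control replicate 3 no gene of the list passed (2.72% of all genes did), and the edgeR adjusted p was 0.0567 for CDC25C, 0.0737 for NUF2, 0.058 for CENPA, 0.0894 for CDK1, 0.0823 for NUSAP1, 0.116 for TTK and 0.184 for FOXM1. CDC25C passed in each of the other 20 alternatives run, with adjusted p from 5.28e-07. NUF2 also missed without JQ1 without sgRNA replicate 3 (0.0593), and CENPA without control replicate 1 (0.0987) and JQ1 without sgRNA replicates 2 and 3 (0.0859 and 0.0647). CDK1 and TTK also missed without control replicate 1 (0.115 and 0.126) and without JQ1 without sgRNA replicate 1 (0.0511 and 0.0544), replicate 2 (0.0875 and 0.0906) or replicate 3 (0.0809 and 0.112). NUSAP1 also missed without control replicate 1 or 2 (0.104 and 0.0656) and without JQ1 without sgRNA replicate 1, 2 or 3 (0.055, 0.125 and 0.0753). FOXM1 missed in 10 of 21 alternatives, including every one that left out a control library (0.0586 to 0.184) or a library of JQ1 without sgRNA (0.0953 to 0.169), and those without JQ1 with sgRNA replicate 2 (0.0556) or JQ1-FCPF without sgRNA replicate 3 (0.0614). With no filter on low counts CDK1 (0.0503), NUSAP1 (0.0825) and FOXM1 (0.0501) missed. The adjusted p over 21 alternatives ran from 2.14e-05 to 0.0737 for NUF2, 8.03e-05 to 0.0987 for CENPA, 7.92e-05 to 0.126 for TTK, 0.000315 to 0.115 for CDK1, 0.000394 to 0.125 for NUSAP1 and 0.00174 to 0.184 for FOXM1.

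With JQ1 and sgRNA, 1 of the 40 genes rose relative to the same control libraries and none fell, while 7.21% of all tested genes were called higher and 7.04% lower. That gene was CDC25C, with 27.05, 27.6 and 30.9 CPM with JQ1 with sgRNA, against 18.3, 20.2 and 18.5 CPM in control libraries. The groups did not overlap, and the log2 fold change was 0.59 ± 0.16, 1.5-fold (edgeR adjusted p = 0.0225). Over 21 alternatives the adjusted p ran from 0.000142 to 0.0861, and it missed the threshold without control replicate 1 (0.0689), control replicate 3 (0.0861) or JQ1 with sgRNA replicate 3 (0.0731). CCNB1 had 162, 214 and 223 CPM with JQ1 with sgRNA, the first from the library that stands apart, against 223, 256 and 234 CPM in control libraries (-0.25 ± 0.11, edgeR adjusted p = 0.119). KIF2C had 204, 216 and 248 CPM, against 155, 194 and 185 CPM in control libraries, with no overlap (0.32 ± 0.12, edgeR adjusted p = 0.0844). The median log2 fold change of the list was 0.09, against 0.009 over all genes, with 28 positive. It was 0.02 without JQ1 with sgRNA replicate 3 and 0.05 without control replicate 1, with 22 positive in each. Without both libraries that stand apart, 6 genes of the list were higher and 1 lower, and 22.8% of all genes were called. Without JQ1-FCPF with sgRNA replicate 2 alone, 3 genes of the list were called (21.1% of all genes).

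Adding sgRNA under JQ1 gave no call in the list. edgeR called 0 of 40 genes, 6 were lower and none higher at an unadjusted p under 0.05, and DESeq2 called 0. Among all tested genes 0.0129% were called by edgeR and 0.0387% by DESeq2. At an unadjusted edgeR p under 0.05, 3.92% were lower and 4.23% higher, 8.15% in all. The 6 genes were NUF2, KIF20A, TTK, CDK1, NDC80 and NUSAP1, and the JQ1 without sgRNA libraries also serve in the comparison with control above. NUF2 had 53.1, 49.6 and 57.0 CPM with JQ1 with sgRNA, against 67.5, 65.8 and 74.6 CPM with JQ1 without sgRNA (log2 fold change -0.38, 95% interval -0.62 to -0.14, edgeR adjusted p = 0.502). KIF20A had 48.7, 51.7 and 56.2 CPM with sgRNA, against 67.9, 69.3 and 70.6 CPM without it (-0.41, interval -0.67 to -0.15, edgeR adjusted p = 0.502). TTK had 43.5, 40.1 and 49.4 CPM with sgRNA, against 52.4, 56.6 and 60.8 CPM without it (-0.35, interval -0.63 to -0.07), and CDK1 had 157, 161 and 179 CPM with sgRNA, against 186, 199.5 and 202 CPM without it (-0.24, interval -0.46 to -0.03). None of these 4 genes, picked by their small p-values, passed the adjusted threshold. Their groups did not overlap, but the share of all genes without overlap was not counted. The median over the 40 genes was -0.09, against 0.009 over all genes, with 28 of 40 negative.

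Adding sgRNA under JQ1-FCPF lowered AURKA and raised no gene of the list past the threshold. Of all tested genes, 4.2% were called lower and 2.06% higher. AURKA (ENSG00000087586, chr20:56369389-56392337, minus strand), the kinase that matures centrosomes and builds the spindle, had 62.3, 96.8 and 73.8 CPM with JQ1-FCPF with sgRNA, against 115, 100.2 and 108 CPM with JQ1-FCPF without sgRNA. The groups did not overlap, and the value nearest to the other group, 96.8 CPM, was from the library that stands apart. The log2 fold change was -0.47 ± 0.12, 1.39-fold lower (edgeR adjusted p = 0.0244). AURKA was again the 1 gene called without both libraries that stand apart, with 10.2% of all genes called. The adjusted p ran from 9.38e-06 to 0.12 over 21 alternatives. It missed the threshold without JQ1-FCPF without sgRNA replicate 1 (0.058) or 3 (0.085), without JQ1-FCPF with sgRNA replicate 1 (0.113) or 3 (0.0691), and in a fit of these 2 groups alone (0.12).

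Relative to control, AURKA again was the 1 gene of the list called with JQ1-FCPF with sgRNA, where 4.79% of all genes were lower and 2.42% higher. The same 3 libraries are set here against 96.35, 115 and 114 CPM in control libraries, and replicate 2, at 96.8 CPM, overlapped the lowest control. The log2 fold change was -0.48 ± 0.12 (edgeR adjusted p = 0.0183, 7.85e-06 to 0.0984 over 21 alternatives). It missed the threshold without control replicate 2 (0.0807) or 3 (0.0875), without JQ1-FCPF with sgRNA replicate 1 (0.0984) or 3 (0.0561), and in a fit of these 2 groups alone (0.0938). AURKA was the 1 gene called without both libraries that stand apart, with 11.1% of all genes called. The median of the 40 genes was 0.11, against 0.012 over all genes, with 32 positive, and 0.05 with 25 positive without JQ1-FCPF with sgRNA replicate 2. It was 0.17 with 35 positive without replicate 1 of that group, where CDC25C was the 1 call, as higher (5.75% of all genes), and 0.07 with 27 positive without control replicate 1. Without replicate 3 of JQ1-FCPF with sgRNA, NUSAP1 was the 1 call, as higher (7.6% of all genes). NUSAP1 and TOP2A passed as higher without JQ1 with sgRNA replicate 1 (9.91% of all genes), and NUSAP1 without JQ1-FCPF without sgRNA replicate 1 (7.26%). Under JQ1, AURKA had 87.1, 96.6 and 101 CPM with sgRNA, against 105, 110.2 and 106 CPM without it (log2 fold change -0.18, interval -0.43 to 0.08). The difference between the sgRNA effects under JQ1-FCPF and under JQ1 was -0.30 for AURKA, with an interval of -0.66 to 0.06 (edgeR adjusted p = 0.449). That test thus missed the threshold over all 15 libraries and passed it without both libraries that stand apart.

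The median log2 fold change of the 40 genes for sgRNA under JQ1-FCPF was 0.13, against 0.007 over all genes, with 33 of 40 positive. This shift moved with 1 library, since without JQ1-FCPF with sgRNA replicate 2 the median was 0.03 with 24 of 40 positive. NUSAP1 had 135, 166 and 128 CPM with JQ1-FCPF with sgRNA, against 124, 107 and 114 CPM with JQ1-FCPF without sgRNA, without overlap (0.32 ± 0.10, edgeR adjusted p = 0.0633). BUB1, a checkpoint kinase, had 100.1, 149 and 117 CPM with sgRNA, against 110.1, 85.4 and 85.2 CPM without it (0.38 ± 0.13, edgeR adjusted p = 0.0913). DLGAP5, a spindle protein also called HURP, had 49.6, 72.9 and 49.0 CPM with sgRNA, against 57.0, 41.2 and 36.8 CPM without it (0.34 ± 0.16, edgeR adjusted p = 0.209). BUB1 and DLGAP5 overlapped between the groups, with replicate 2 the highest value in each. Leaving out JQ1-FCPF without sgRNA replicate 1, which is high for 33 genes, called BUB1, HMMR, DLGAP5 and NUSAP1 higher and lost AURKA (7.13% of all genes). Leaving out JQ1-FCPF without sgRNA replicate 3 left no call in the list (2.69% of all genes). BUB1 was the 1 call without JQ1-FCPF with sgRNA replicate 1 (4.61% of all genes) and NUSAP1 without replicate 3 (6.21%). NUSAP1 joined AURKA without JQ1 with sgRNA replicate 1 (8.68%).

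**Figure D5:**
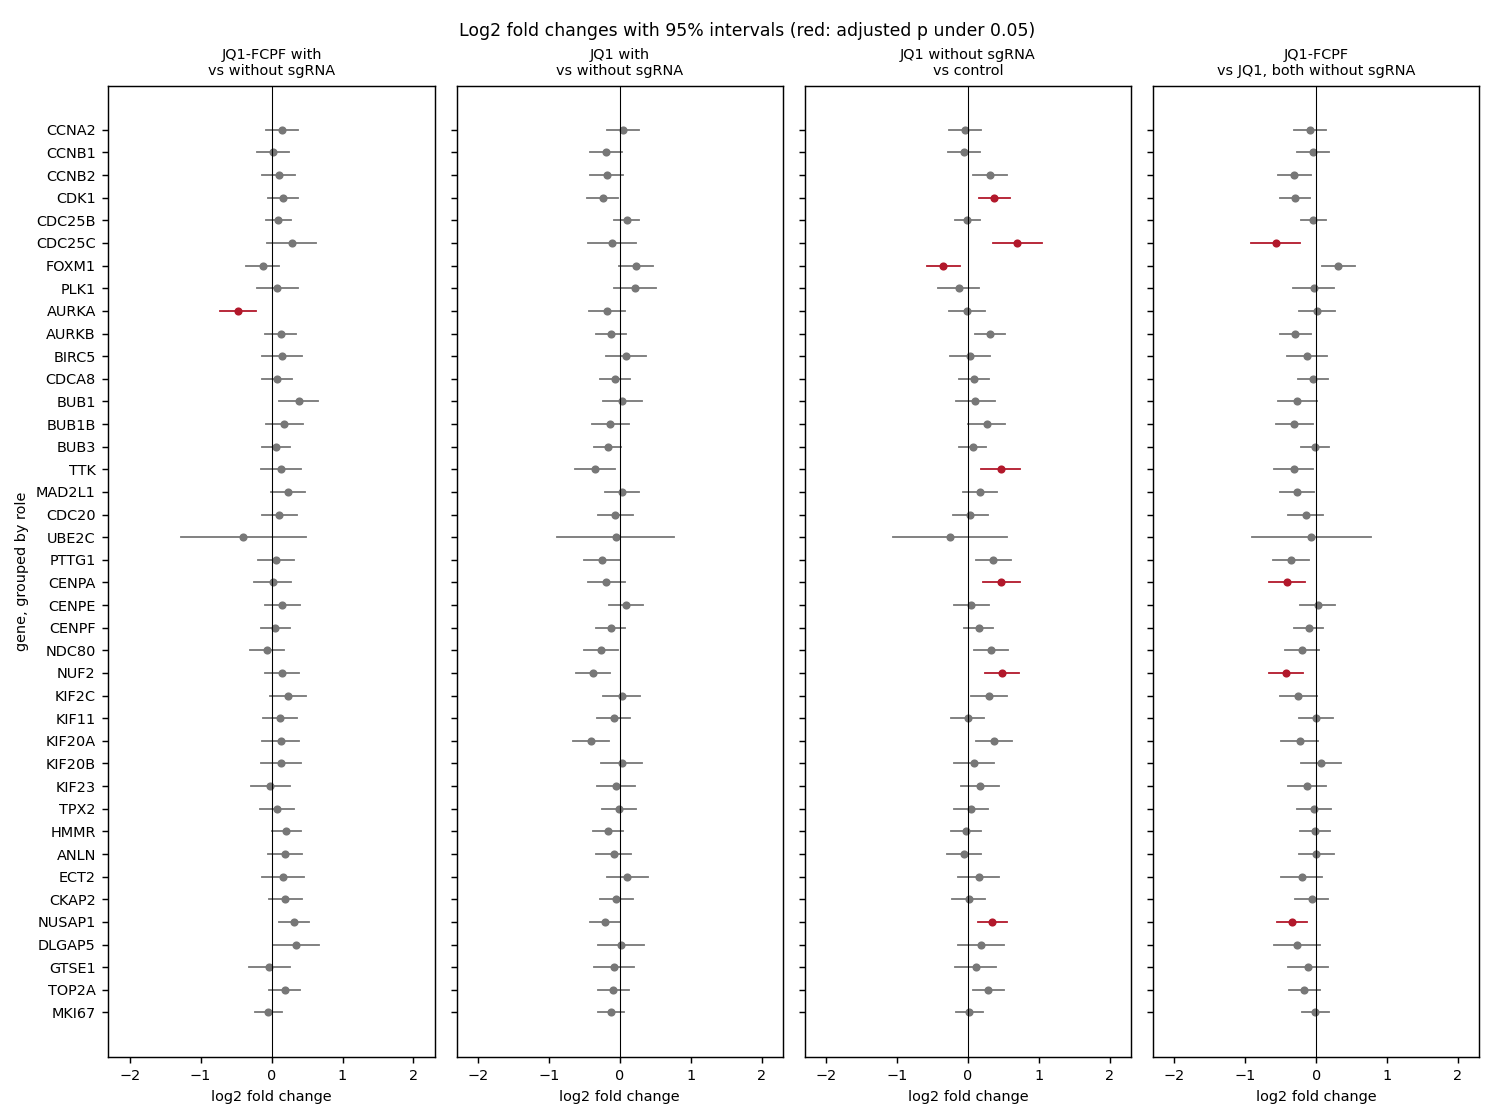
Log2 fold change (points) and 95% interval (lines) of the 40 genes in 4 comparisons, with genes at an edgeR adjusted p under 0.05 in red. AURKA is the 1 gene in red for sgRNA under JQ1-FCPF, none is for sgRNA under JQ1, 7 are for JQ1 without sgRNA against control, and 4 are for JQ1-FCPF against JQ1 without sgRNA.

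The difference between both sgRNA effects was tested directly as an interaction of compound and sgRNA. edgeR called 0 of 40 genes, 6 were higher and 1 lower at an unadjusted p under 0.05, and DESeq2 called 1, NUSAP1. Of all genes 0.786% were called by edgeR and 1.61% by DESeq2. At an unadjusted edgeR p under 0.05, 5.9% were higher and 8.03% lower, 13.9% in all. The smallest edgeR adjusted p was 0.0834 for NUSAP1, at 0.52 ± 0.14. NUF2, KIF20A and CDK1 followed at 0.52, 0.54 and 0.40, with edgeR adjusted p of 0.144, 0.17 and 0.216. The median interaction was 0.21, against -0.001 over all genes, with 35 of 40 positive; without JQ1-FCPF with sgRNA replicate 2 it was 0.10. NUSAP1 was called higher and AURKA lower without both libraries that stand apart, beside 3.25% of all genes.

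JQ1-FCPF without sgRNA was set against the control as well. edgeR called 0 of 40 genes, none had an unadjusted p under 0.05, and DESeq2 called 0. Among all genes 0.00644% were called by edgeR, 1.84% had an unadjusted p under 0.05 and 0.0193% were called by DESeq2. The log2 fold changes of the 40 genes ran from -0.32 to 0.16 with a median of 0.002, the same as over all genes. CDC25C had 22.5, 22.15 and 17.3 CPM with JQ1-FCPF without sgRNA, against 18.3, 20.2 and 18.5 CPM in control libraries, an interval of -0.22 to 0.47.

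JQ1-FCPF and JQ1 were compared in 2 pairs at a matched 1 µM and 1 h, both without sgRNA and both with it. How the compounds differ in structure is not in the labels. Without sgRNA, 4 of the 40 genes were lower with JQ1-FCPF than with JQ1 and none was higher, while 3.69% of all genes were called lower and 4.11% higher. These were NUF2, CDC25C, NUSAP1 and CENPA, which had also risen with JQ1 relative to control, and the same JQ1 libraries serve in both comparisons. NUF2 had 47.95, 55.45 and 51.1 CPM with JQ1-FCPF, against 67.5, 65.8 and 74.6 CPM with JQ1 (log2 fold change -0.43 ± 0.12, edgeR adjusted p = 0.0299). CDC25C had 22.5, 22.15 and 17.3 CPM with JQ1-FCPF, against 29.95, 31.5 and 30.8 CPM with JQ1 (-0.57 ± 0.17, edgeR adjusted p = 0.0379). In both genes, as in NUSAP1 and CENPA below, all JQ1-FCPF libraries were below all JQ1 libraries. NUSAP1 had 124, 107 and 114 CPM with JQ1-FCPF, against 138, 154 and 145.5 CPM with JQ1 (-0.34 ± 0.10, edgeR adjusted p = 0.039). CENPA had 35.95, 31.1 and 33.8 CPM with JQ1-FCPF, against 41.5, 47.1 and 45.6 CPM with JQ1 (-0.41 ± 0.125, edgeR adjusted p = 0.0467). With p adjusted over both pairs together, NUF2, CDC25C and NUSAP1 passed (edgeR adjusted p 0.0361, 0.0471 and 0.0487) and CENPA did not (0.0576).

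These 4 calls were sensitive to single libraries. None held without JQ1 without sgRNA replicate 1, 2 or 3 or without JQ1-FCPF without sgRNA replicate 2 or 3, where edgeR adjusted p ran from 0.0601 to 0.176. In those fits 0.479% to 2.33% of all genes were called, against 7.8% over all 15 libraries. Without JQ1-FCPF without sgRNA replicate 1 (6.15% of all genes called) NUSAP1 held, together with MAD2L1, while NUF2 (0.0803), CDC25C (0.0523) and CENPA (0.055) missed. Without control replicate 1 or 2 NUF2 and CDC25C held (6.48% and 6.34% of all genes called). Without control replicate 3 NUF2 alone did (5.73%), CDC25C being at 0.0504. CENPA was also lost without JQ1 with sgRNA replicate 2 (0.0549) or 3 (0.0557). Over 21 alternatives each, the adjusted p ran from 0.000596 to 0.112 for NUF2, 0.000127 to 0.176 for CDC25C, 0.00102 to 0.169 for NUSAP1 and 0.00121 to 0.174 for CENPA. Without both libraries that stand apart, 14 genes were lower and 1 was higher, with 22.6% of all genes called. Leaving out JQ1-FCPF with sgRNA replicate 2 alone gave 9 lower genes (14.5% of all genes), and leaving out JQ1 with sgRNA replicate 1 alone gave 8 (12.2%). The list's median was -0.13, against 0.003 over all genes, with 35 of 40 negative. Without JQ1-FCPF without sgRNA replicate 1 it was -0.20, with 2 of 40 positive, and without replicate 2 of that group -0.10, with 14 of 40 positive.

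With sgRNA, edgeR called 0 of 40 genes between JQ1-FCPF and JQ1, 4 were higher and 1 lower at an unadjusted p under 0.05, and DESeq2 called 1, HMMR. Of all genes 2.95% were called by edgeR and 4.22% by DESeq2. At an unadjusted edgeR p under 0.05, 8.24% were higher and 10% lower, 18.3% in all. HMMR, a spindle and hyaluronan-binding protein that is named here because of its p-value, had 79.99, 88.1 and 81.7 CPM with JQ1-FCPF, against 63.6, 63.7 and 67.3 CPM with JQ1, without overlap (0.36 ± 0.10, edgeR adjusted p = 0.0567, or 0.0434 when adjusted over both pairs). CDC25C had 19.2, 35.5 and 21.1 CPM with JQ1-FCPF, against 27.05, 27.6 and 30.9 CPM with JQ1, with an interval of -0.52 to 0.16. Its highest value was again replicate 2 of JQ1-FCPF with sgRNA. Without that library 1 gene was higher (HMMR) and 3 were lower (CENPA, CDC25C and AURKA), while 17.4% of all genes were called. HMMR also passed without JQ1-FCPF without sgRNA replicate 1 (3.06% of all genes) or 3 (2.3%), and ANLN without JQ1 with sgRNA replicate 1 (3.62%). Without both libraries that stand apart HMMR and ANLN, an actin-binding protein of the cleavage furrow, were higher, and CENPA, CDC25C, PLK1, AURKA and GTSE1 were lower, while 20.2% of all genes were called. The median of the 40 genes was 0.03 with all libraries and -0.10 without both, so its sign turned with them.

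Other genes of G2 and mitosis were followed through a second list of 104 genes, all of which were tested. With JQ1 without sgRNA relative to control, 5 rose and 7 fell, and the median was 0.03. These shares of the list lie near the 6.07% of all genes called higher and 6.23% called lower. Those that rose included CENPH of the inner kinetochore (log2 fold change 0.49 ± 0.10, edgeR adjusted p = 0.00434), the CENPA chaperone HJURP (0.56 ± 0.14, edgeR adjusted p = 0.0123) and the mitotic kinase PBK (0.57 ± 0.14, edgeR adjusted p = 0.015). Those that fell included ANAPC2, the cullin of the APC/C (-0.65 ± 0.12, edgeR adjusted p = 0.00262), E2F4 of the DREAM complex (-0.57 ± 0.11, edgeR adjusted p = 0.00378) and CENPL of the inner kinetochore (-0.57 ± 0.12, edgeR adjusted p = 0.00668). With JQ1 with sgRNA 4 rose and 8 fell relative to control, where 7.21% of all genes were higher and 7.04% lower. With JQ1-FCPF with sgRNA 2 rose and 3 fell, where 2.42% of all genes were higher and 4.79% lower. For sgRNA under JQ1-FCPF none rose and 3 fell, beside 2.06% and 4.2% of all genes. Those that fell were CENPL (-0.61 ± 0.12, edgeR adjusted p = 0.00422), MAD2L1BP, which turns off the checkpoint (-0.48 ± 0.12, edgeR adjusted p = 0.0231), and SGO1, which protects centromeric cohesion (-0.35 ± 0.10, edgeR adjusted p = 0.0324).

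Between JQ1-FCPF and JQ1 without sgRNA, where 4.11% of all genes were higher and 3.69% lower, 3 of the 104 were higher, ANAPC2 (0.67 ± 0.12), E2F4 (0.59 ± 0.11) and CENPL (0.56 ± 0.12), and 3 were lower, NEK2 (-0.53 ± 0.12), CENPH (-0.39 ± 0.10) and PBK (-0.56 ± 0.14). With sgRNA 1 was higher (NCAPG of condensin, 0.40 ± 0.10) and 1 lower (PSRC1, -0.46 ± 0.12), beside 1.18% and 1.77% of all genes. None of the 104 was called for sgRNA under JQ1, for the interaction or for JQ1-FCPF without sgRNA relative to control, and DESeq2 called 0 in each. There 7, 11 and 0 had an unadjusted p under 0.05 in edgeR, beside 8.15%, 13.9% and 1.84% of all genes. A list of 34 S phase genes is given beside these, and its difference from the G2/M genes was not tested. With JQ1 without sgRNA none of the 34 rose and 10 fell relative to control (median -0.20), where 6.23% of all genes fell. With JQ1 with sgRNA none rose and 8 fell (median -0.21), where 7.04% of all genes fell. With JQ1-FCPF with sgRNA none rose and 3 fell (median -0.07), where 4.79% of all genes fell. Between JQ1-FCPF and JQ1 without sgRNA 7 were higher and none lower (median 0.145), where 4.11% of all genes were higher. In JQ1-FCPF with sgRNA replicate 2, the library highest for the G2/M genes, the S phase genes had a median deviation of -0.14, against 0.06 and 0.15 in replicates 1 and 3.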

How the data were processed

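RNA-seq was read from gene-level count tables of 15 libraries, 5 groups of 3, with 12625669 to 17544518 counts each. The authors deposited raw counts per gene with gene positions and exon lengths, per the file headers. For the aligner, counter, strand setting and genome build, the sources used here give nothing. Gene ends matched GENCODE release 29 (GRCh38) for 96.3% of the 56898 IDs found there and for all 40 genes described. Symbols came from a separate list of gene names, matched by gene ID, with GENCODE 29 names where a listed gene had no match. CPM and TPM were computed here from the counts and the exon lengths. Counts of all 5 groups entered 1 fit with edgeR 4.0.16 (R 4.3.3; TMM scaling, filterByExpr, quasi-likelihood test, Benjamini-Hochberg adjustment over 15517 genes, threshold 0.05), without a replicate block. Log2 CPM used a prior count of 2. DESeq2 1.42.0 (default size factors), DESeq2 size factors in edgeR, no filter, the compared groups alone, a replicate block, leaving out each library, and leaving out both libraries that stand apart were the alternatives. The scripts were tested on simulated data. All 40 genes are named with their range. Given in full are those called in any comparison, the member of each role with the highest mean TPM, and the 4 with the smallest p for each sgRNA effect, the interaction and JQ1 without sgRNA against control, plus up to 6 called genes of the second list per comparison. HMMR in the compound comparison, and other genes named where leaving out a library moved a call, were chosen after their values were seen. The 40 genes and the other lists were chosen with earlier results of these data known. Promoters came from RefSeq (GRCh38.p14).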

Additional observations from a re-analysis of the deposited data

How the results depend on the processing

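Counts of called genes among the 40 moved by more than 1.5 times as follows. In brackets is the share of all tested genes called in the same fit. With DESeq2, 2 genes were called for sgRNA under JQ1-FCPF (7.32%) and 1 for the interaction (1.61%). DESeq2 also called 3 for JQ1-FCPF with sgRNA against control (8.06%) and 1 for JQ1-FCPF against JQ1 with sgRNA (4.22%). With no filter on low counts, 2 were called for sgRNA under JQ1-FCPF (2.83%) and 4 for JQ1 without sgRNA against control (4.98%). In fits of the compared groups alone, 0 were called for sgRNA under JQ1-FCPF (2.43%) and 15 for JQ1 without sgRNA against control (31.4%). Such fits called 0 for JQ1-FCPF with sgRNA against control (3.76%) and 13 for JQ1-FCPF against JQ1 without sgRNA (20.6%). Without both libraries that stand apart, 2 were called for the interaction (3.25%), 15 for JQ1 without sgRNA against control (26.9%) and 7 for JQ1 with sgRNA against control (22.8%). In the same fit 7 were called for JQ1-FCPF against JQ1 with sgRNA (20.2%) and 15 for the same compounds without sgRNA (22.6%). The median for JQ1-FCPF against JQ1 with sgRNA was then -0.099. Leaving out 1 library at a time gave 0 to 4 calls for sgRNA under JQ1-FCPF, 0 to 15 for JQ1 without sgRNA against control, 0 to 3 for JQ1 with sgRNA and for JQ1-FCPF with sgRNA against control, 0 to 4 for JQ1-FCPF against JQ1 with sgRNA and 0 to 9 without sgRNA. It gave 0 in every case for sgRNA under JQ1, the interaction and JQ1-FCPF without sgRNA against control. At the highest count of each range above, the shares of all tested genes called were 7.13%, 18.5%, 21.1%, 9.91%, 17.4% and 14.5%, in the order given. Where every case gave 0, no more than 2.18% of all genes were called. The cause of these moves was not tested. Of 294 recomputed fold changes of called genes, 213 kept their call, 81 lost it and 0 changed sign.

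The letters in the sample titles showed no pairing by correlation. Deviations from the group mean of same-letter libraries of different groups correlated at -0.238 to 0.311 (30 pairs, median -0.009), with 4 of 30 over 0.1. Those of different letters correlated at -0.339 to 0.237 (60 pairs, median 0.018), with 15 of 60 over 0.1. Same-letter libraries were thus no more alike by the median, which cannot show that the samples were unpaired. With the letter as a replicate block, 9 genes were called for JQ1 without sgRNA against control (11.2% of all genes), against 7 without the block (12.3%). FOXM1 was at an edgeR adjusted p of 0.0623 with the block.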
